A study of Mus musculus with 16 samples.

Results

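Transcript levels of the oxidative phosphorylation genes were measured by sequencing of total RNA, depleted of ribosomal RNA, from mouse embryonic stem cells (ESCs). The members are the genes whose symbol begins with Nduf, Uqcr, Atp5, Sdha to Sdhd, Cox4 to Cox8, mt-Nd, mt-Co, mt-Cyt or mt-Atp, with 1 pseudogene name left out. This rule, which uses no measured value, found 105 of the 26127 genes in the deposited table. They comprise 83 nuclear genes of subunits (36 of complex I, 4 of complex II, 8 of complex III, 20 of complex IV and 15 of complex V), 13 protein genes of the mitochondrial genome, and 9 genes that carry such a name but encode no subunit. Of the 83, 8 are isoforms known mainly from other tissues.

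The 16 libraries fall into 3 groups, all labelled as ESCs of the background strain E14. There are 8 wildtype (WT) libraries, 4 of genotype Dnmt1-/- (Dnmt1 KO) and 4 of genotype Dicer/Dnmt1 -/- (Dicer/Dnmt1 KO), and the titles mark the first 2 groups as Dicer control. Each library carries a number and a letter, A or B, whose meaning is not given, and no time, treatment or passage is stated. The methods of the study describe ESCs of strain C57BL/6 with Dnmt1 flanked by loxP sites, in which Cre is induced, and double knockout lines made from them with CRISPR, grown as single colonies on feeder cells. The origin of the cells is therefore uncertain, and whether numbers stand for clones or cultures is not known. Dnmt1 maintains DNA methylation at cell division, and Dicer1 cuts double-stranded RNA into microRNAs and other small RNAs.

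Oxidative phosphorylation takes place in the inner membrane of mitochondria. Complexes I and II pass electrons from NADH and succinate to ubiquinone, complex III passes them to cytochrome c and complex IV to oxygen, while complexes I, III and IV pump protons. Complex V, the ATP synthase, lets the protons flow back to make ATP. Complexes I, III, IV and V are assembled from subunits of both genomes, while complex II is wholly nuclear. ESCs in culture are known for a high rate of glycolysis beside respiration.

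Depth ran from 31.5 to 52.5 M recovered reads, with 13.9 to 25.4 M in genes. Values are log2 RPM, in which reads are scaled to the total of the library, so a level is relative to all other RNA sequenced. In such bulk samples fewer cells of a type and less RNA per cell cannot be told apart. One pair of WT libraries stands apart: Dnmt1 was at 5.69 and 5.55 in 4A and 4B, while the other 6 WT libraries had 7.40 to 7.66 and the 8 knockout libraries 4.17 to 4.64. Results are given with and without this pair, WT number 4. The log2 fold change of Dnmt1 against WT was -2.66 (SE 0.35, adjusted p = 1.18e-05) and -2.49 (SE 0.35, adjusted p = 1.06e-05) in the respective knockouts. Relative to WT, Dicer1 fell by 1.40 on the log2 scale in Dicer/Dnmt1 KO (SE 0.17, adjusted p = 2.81e-06). All 6 ESC markers passed the filter on low values, with a summed level of 1196 to 2206 RPM over the 16 libraries. Nanog and Sox2 fell in Dnmt1 KO against WT (2 of 6, median -0.27), beside 17.5% of all tested genes. None of the 6 was called by limma in the double knockout against WT (0 at an unadjusted p under 0.05). Sox2, Nanog and Esrrb rose between the knockouts (3 of 6, median 0.19), beside 16.9% of all tested genes. The summed level of 8 feeder fibroblast markers was 92.3 to 128 RPM in WT and 211 to 234 RPM in Dnmt1 KO, while Dicer/Dnmt1 KO had 201 to 297 RPM. Of the 7 that could be tested, 5 and 6 rose in the respective knockout against WT, beside 23.5% and 31.9% of all tested genes. Dcn had 3 to 19 reads per library. The part of feeder RNA and of the ESC markers in the results below was not tested.

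Some sequences bear on how the values can be read. Promoters of many respiratory genes are known to bind NRF1 and GABPA. RefSeq start sites (build GRCm38.p6) could be matched for 76 of the 92 nuclear members, in 82 windows of 300 bases, of which 250 lie before the start. The letters GCATGCGC, a core of the NRF1 site, occurred on either strand in 13.4% of these windows and in 2.71% of all 32851 windows. CCGGAAG (GABPA) occurred in 23.2% against 8.86%, AAGATGG (YY1) in 15.9% against 6.34%, and AAGGTCA (ESRRA) in 9.76% against 4.72%. The NRF1 letters can overlap themselves on opposite strands. Both the NRF1 and the GABPA letters hold the bases CG, of which the members' windows had a median of 19.5 and all windows 7. The part of this base composition in the shares was not tested. Shown here are the last 100 bases before the start of 3 members that recur below, with the NRF1 or GABPA letters in capitals:
Atp5k (complex V, window chr5:108434350-108434649, minus strand): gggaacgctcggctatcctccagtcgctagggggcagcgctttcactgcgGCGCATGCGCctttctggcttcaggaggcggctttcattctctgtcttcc
Sdhb (complex II, window chr4:140961021-140961320, plus strand): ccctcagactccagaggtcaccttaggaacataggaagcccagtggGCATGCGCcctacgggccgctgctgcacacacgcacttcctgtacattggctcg
Sdhd (complex II, window chr9:50603800-50604099, minus strand): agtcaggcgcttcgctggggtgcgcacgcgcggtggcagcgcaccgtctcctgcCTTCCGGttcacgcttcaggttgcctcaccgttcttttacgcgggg
A match of letters describes these windows only and is not a binding site.

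For Cox7b2, whose level differed most between the groups, and for its somatic paralog Cox7b, the 250 bases before the RefSeq start are shown with each CpG, the target of DNA methylation, in capitals:
Cox7b2 (window chr5:71548156-71548455, minus strand): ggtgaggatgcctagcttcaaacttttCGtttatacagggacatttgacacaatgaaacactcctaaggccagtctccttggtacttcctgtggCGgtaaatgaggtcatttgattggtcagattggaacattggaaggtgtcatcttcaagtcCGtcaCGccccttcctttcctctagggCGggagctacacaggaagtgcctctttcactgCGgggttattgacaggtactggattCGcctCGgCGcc
Cox7b (window chrX:106015450-106015749, plus strand): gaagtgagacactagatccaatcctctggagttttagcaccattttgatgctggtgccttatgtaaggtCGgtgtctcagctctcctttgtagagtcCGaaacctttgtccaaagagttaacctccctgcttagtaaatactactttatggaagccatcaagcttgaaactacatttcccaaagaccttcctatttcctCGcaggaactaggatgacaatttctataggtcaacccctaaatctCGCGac
The 300-base window held 10 CpG for Cox7b2 and 5 for Cox7b, beside medians of 7 over all windows and 19.5 over the members' windows. Methylation of these windows was not analysed here.

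For the mitochondrial genes, build NCBIM37 holds a nuclear copy of bases 6390 to 11042 of the mitochondrial genome on chromosome 1 (24618374 to 24623027, minus strand). The copy was 99.936% identical over 4654 aligned bases, with 3 differences. A stretch of 61 bases around the difference T9461C in mt-Nd3 (the mitochondrial base first, positions counted from 1 on the mitochondrial genome) is shown with the differing base in capitals:
mitochondrial genome, chrM:9431-9491, plus strand: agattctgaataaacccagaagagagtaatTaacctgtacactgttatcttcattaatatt
nuclear copy, chr1:24619926-24619986, minus strand: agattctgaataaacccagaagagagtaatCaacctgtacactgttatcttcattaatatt
Every 100-base window of mt-Atp6, mt-Atp8, mt-Co2, mt-Co3 and mt-Nd4l had an exact copy there, as had 98.8% of the windows of mt-Nd3 and 60.8% of those of mt-Nd4. Of the windows of mt-Co1 30.8% had an exact nuclear copy, as had 3.19% of those of mt-Nd2. For mt-Nd1, mt-Nd5, mt-Nd6 and mt-Cytb no window had an exact nuclear copy. Since alignments of low mapping quality were discarded before counting, levels of the copied genes are uncertain.

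The nuclear subunit genes took the smallest shares of gene reads in Dicer/Dnmt1 KO 1A and 1B, and these libraries had the largest shares of mitochondrial reads. Nuclear subunit genes took 0.990%, 0.982%, 1.10% and 1.08% of the gene reads in Dicer/Dnmt1 KO 1A, 1B, 2A and 2B. They took 1.30%, 1.18%, 1.05% and 1.09% in the Dnmt1 KO libraries in the same order. In WT the share ran from 1.02% in WT 1A through a median of 1.23% to 1.59% in WT 4B. WT numbers 1 and 2 lay at 1.02% to 1.18% and WT numbers 3 and 4 at 1.27% to 1.59%, so the groups overlapped and the WT libraries differed among themselves by number. The mitochondrial genes took 1.87%, 1.98%, 1.57% and 1.43% in Dicer/Dnmt1 KO, 1.18%, 1.78%, 1.46% and 1.46% in Dnmt1 KO, and 1.04% to 1.86% with a median of 1.49% in WT. The ratio of mitochondrial to nuclear reads was 1.89, 2.02, 1.43 and 1.32 in Dicer/Dnmt1 KO, 0.911, 1.51, 1.39 and 1.33 in Dnmt1 KO, and 0.819 to 1.82 in WT. In WT, too, the highest ratios were in numbers 1 and 2 and the lowest in numbers 3 and 4, where the nuclear share was high. Cytosolic ribosomal protein genes moved with the nuclear share, at 6.71% to 11.1% of gene reads in WT and 6.27% to 8.16% in Dnmt1 KO, while Dicer/Dnmt1 KO had 5.43% to 6.10%. These shares and ratios are a description of the libraries and were not tested.

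**Figure D1:**
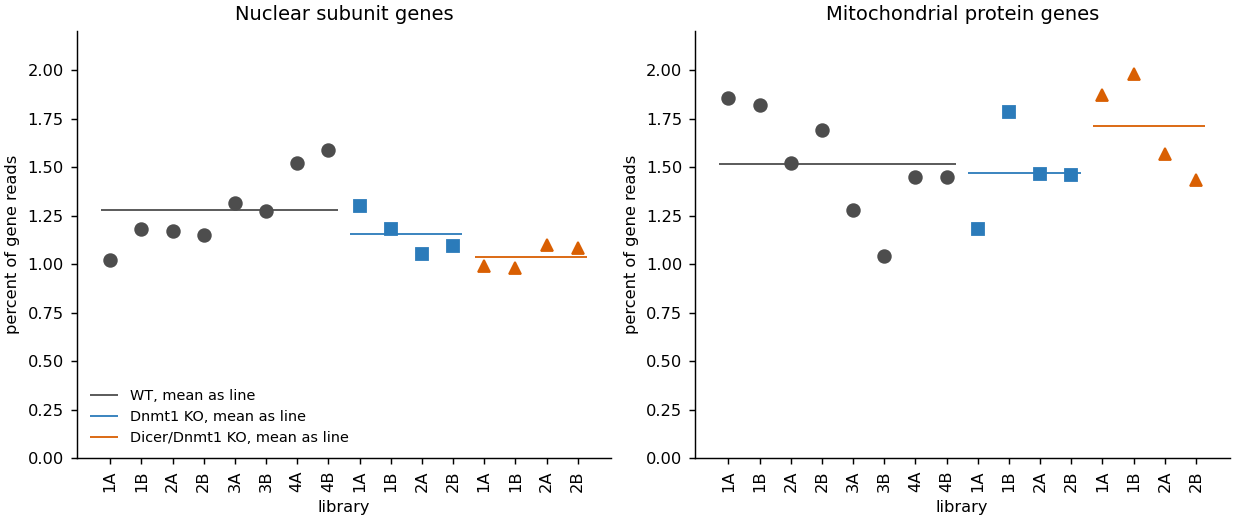
Percent of gene reads (y axis) taken by the nuclear subunit genes (left) and by the 13 mitochondrial protein genes (right) in each library (x axis, number and letter), with the mean of a group as a line. The Dicer/Dnmt1 KO libraries lie at 0.982% to 1.10% on the left, where WT 1A reaches 1.02% and WT 4B 1.59%.

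A gene was tested where it exceeded 1 RPM in at least 4 libraries, which 101 members passed (79 nuclear subunit genes, all 13 mitochondrial genes and all 9 others). The 4 that did not pass are isoforms of complex IV. Adjusted p-values are those of limma over the 12892 tested genes, a member was called where this was under 0.05, and n is 8 in WT and 4 in each knockout. This n counts libraries, with A and B of a number taken as separate. In WT the SD of the log2 difference was 0.25 to 0.36 between A and B of a number and 0.33 to 0.75 between numbers. With A and B averaged, 5 of 10 calls of named members (defined below) were lost in Dnmt1 KO against WT. In Dicer/Dnmt1 KO 13 of 24 were lost against WT and 11 of 12 against Dnmt1 KO.

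Against WT, the isoforms Cox7b2 and Ndufa4l2 had the highest and the lowest log2 fold change of all tested members in both knockouts. Cox7b2 (ENSMUSG00000049387, chromosome 5, 71834063 to 71939444 on NCBIM37, minus strand, 3 exons), a complex IV isoform known from testis, was close to silent in WT and was read in every knockout library. Its log2 RPM in WT ran from -2.39 through a median of -1.58 to -0.40, that is 6 to 35 reads per library. It was 3.56, 3.38, 2.60 and 2.72 in Dnmt1 KO, while Dicer/Dnmt1 KO had 2.57, 2.63, 3.06 and 2.97. All knockout libraries lay above all WT libraries, and the knockouts overlapped each other. Every WT library lay below 1 RPM, so Cox7b2 passed the filter only through the knockouts, where it is high. Filter and test thus used the same values, and its p-values are no separate support. In Dnmt1 KO the log2 fold change was 4.51, or 22.7-fold (SE 0.34, adjusted p = 1.77e-08). With Dicer1 lost as well it was 4.25, or 19.0-fold (SE 0.34, adjusted p = 1.44e-08). Between the knockouts the difference was -0.26 (SE 0.39, adjusted p = 0.635). Without WT number 4 the changes were 4.83 and 4.57, and over all alternatives they lay at 2.74 to 4.83 and 2.51 to 4.76, the lowest with a pseudocount of 1 RPM. The somatic paralog Cox7b (ENSMUSG00000031231, chromosome X, 103211039 to 103217789), in contrast, measured 7.05 ± 0.45 (SD) in WT and was lower in Dicer/Dnmt1 KO (below).

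Ndufa4l2 (ENSMUSG00000040280, chromosome 10, 126951995 to 126954208), an isoform of Ndufa4 known to be induced by low oxygen, moved down in both knockouts. It measured 0.07 to 1.64 in WT with a median of 1.10. The values were -1.13, 0.60, -2.89 and -1.34 in Dnmt1 KO, while Dicer/Dnmt1 KO had -0.82, -0.53, -1.94 and -0.58. Dicer/Dnmt1 KO lay below WT throughout, while Dnmt1 KO 1B, at 0.60, lay within the WT range. Of the knockout libraries only Dnmt1 KO 1B exceeded 1 RPM, so Ndufa4l2 passed the filter through WT, where it is high. Filter and test thus used the same values here too, and its p-values are no separate support. Ndufa4l2 fell by 2.25 (SE 0.45, adjusted p = 0.000668) and by 2.03 (SE 0.45, adjusted p = 0.000875) on the log2 scale. These are few reads, 33 to 133 per library in WT and 5 to 63 in Dnmt1 KO, and the falls were 1.01 and 1.02 with a pseudocount of 1 RPM. Ndufa4 itself measured 6.06 ± 0.44 in WT and 6.05 ± 0.27 in Dnmt1 KO, while Dicer/Dnmt1 KO had 5.50 ± 0.36, where it fell by 0.56 (SE 0.21, adjusted p = 0.0277).

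Cox6b2 (ENSMUSG00000051811, chromosome 7, 4703396 to 4704696), another isoform known from testis, was already present in WT at 3.12 to 3.67. It measured 3.02, 3.03, 2.39 and 2.22 in Dnmt1 KO, below every WT library, a log2 fold change of -0.73 (SE 0.15, adjusted p = 0.00078). In Dicer/Dnmt1 KO it measured 2.82 to 3.16 and the change was -0.46 (SE 0.15, adjusted p = 0.0136), a call that was lost, with a change of 0.047, once the trend with transcript length was removed. In Dnmt1 KO the testis isoforms Cox7b2 and Cox6b2 thus moved in opposite directions. Cox7a1, known from heart and muscle, measured 2.16 ± 0.39 in WT and was called in no comparison. Cox4i2, known from lung, did not pass the filter and held 15 to 39 reads per library in WT and 11 to 28 in Dnmt1 KO, while Dicer/Dnmt1 KO had 7 to 18. Cox6a2, Cox8b and Cox8c had between 0 and 3 reads in every library, and 3 reads, the most that a count of 0 allows, equal 0.0571 to 0.0954 RPM at these depths.

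**Figure D2:**
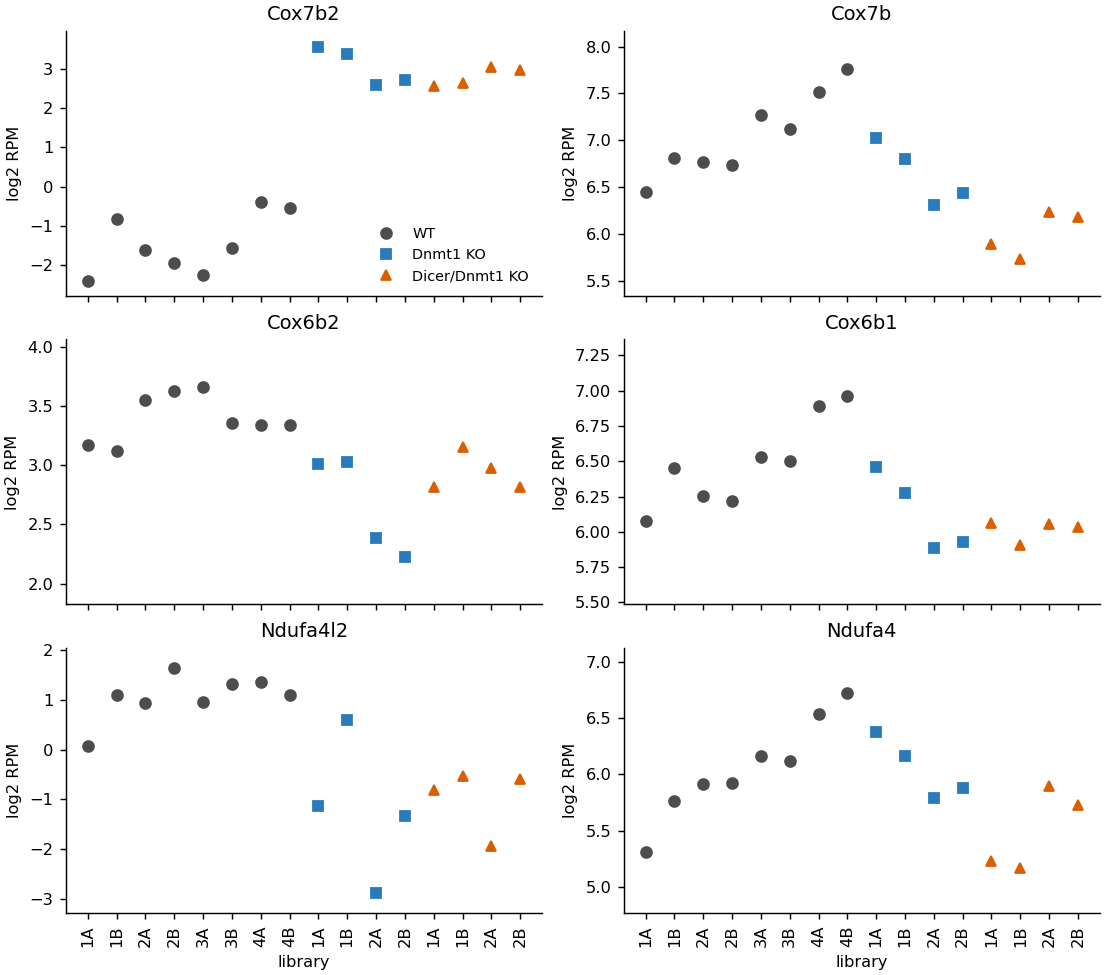
Log2 RPM (y axis) in each library (x axis, number and letter) of 3 isoforms of complex IV (left) and their somatic paralogs (right), coloured by group, with a separate y scale for each gene. Cox7b2 lies between -2.39 and -0.40 in WT and between 2.57 and 3.56 in the knockouts, while Cox7b is highest in WT 4B and lowest in Dicer/Dnmt1 KO 1B.

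The comparison of Dnmt1 KO against WT addresses the loss of the maintenance methylase alone. Few members moved. Of the 79 nuclear subunit genes, 2 rose and 11 fell, and of the 13 mitochondrial genes none was called by limma, nor by voom on recovered reads, and 0 had an unadjusted p under 0.05. The 2 include Cox7b2 and the 11 include Ndufa4l2, which passed the filter only through the groups where they are high. Over all tested genes 23.5% rose and 17.5% fell, so the share of members that rose was below and that of members that fell, 11 of 79, close to the background. The median log2 fold change was -0.14 over the nuclear subunit genes and 0.02 over the mitochondrial genes. Of all 101 members, 3 fell with no overlap between the groups' libraries (background 8.34%): Cox6b2, Cox7a2l and the assembly factor Ndufaf3.

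By complex, 5 of 36 nuclear members of complex I fell in Dnmt1 KO (background 17.5%): Ndufa6, Ndufa7, Ndufa13, Ndufb4 and Ndufs6. All 5 are accessory subunits, as are 29 of the 36. None of the 7 nuclear core subunits was called by limma, and 2 had an unadjusted p under 0.05. The difference between core and accessory subunits was not tested. In complex II Sdhb and Sdhc fell, in complex III none of 8 was called by limma (0 at an unadjusted p under 0.05), and in complex IV Cox7a2l fell beside the isoforms above. In complex V, Atp5g1 and Atp5g2, which encode the same mature c-ring protein, moved in opposite directions. Atp5g1 (ENSMUSG00000006057, chromosome 11, 95930166 to 95936984) rose from 5.48 ± 0.17 to 5.79 ± 0.12, a log2 fold change of 0.32 (SE 0.09, adjusted p = 0.00701), with overlapping libraries. Of its windows 20.3% have an exact copy elsewhere. Atp5g2 went from 6.43 ± 0.26 to 5.97 ± 0.28 (-0.46, SE 0.14, adjusted p = 0.0118), but every 100-base window of its transcript has an exact copy on chromosome 17, so its reads are uncertain.

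The choice of WT libraries decided the direction of this comparison. Against WT numbers 1 and 2 only, 13 nuclear subunit genes rose and 8 fell (background 25.2% and 18.5%) and their median was 0.09. Against WT numbers 3 and 4 only, 2 rose and 49 fell (background 28.3% and 21.8%) and their median was -0.37. Without WT number 4, 4 rose and 11 fell (background 24.6% and 20.4%), with a median of -0.01. With A and B averaged 1 rose and 3 fell (background 11% and 6.74%). The falls were 19 without WT 1A (background 18.7%) and 18 without Dnmt1 KO 1A (background 17.1%).

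Dicer/Dnmt1 KO against WT holds the loss of both genes together. Most nuclear subunit genes fell. Of 79, 50 fell and 1 rose, Cox7b2, which passed the filter only through the knockouts. The 50 include Ndufa4l2, which passed it through WT. Of all tested genes 30.1% fell and 31.9% rose. Over the 79 the median log2 fold change was -0.40, and 74 of the 79 values were below 0. Of all 101 members 26 fell with no overlap between the libraries, where 18.8% of all tested genes did.

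**Figure D3:**
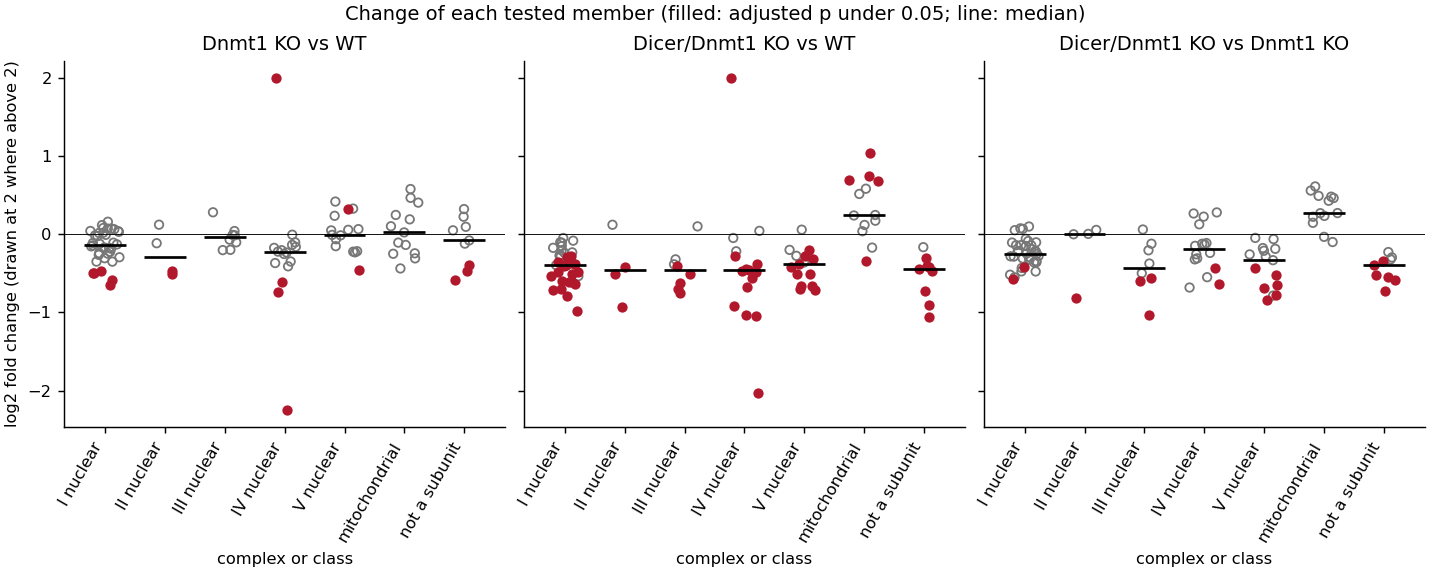
Log2 fold change (y axis) of each tested member in the 3 comparisons, by complex for nuclear subunit genes, and for mitochondrial genes and members that are no subunit (x axis). Filled points have an adjusted p under 0.05, lines are medians, and Cox7b2, at 4.51 and 4.25, is drawn at 2. In the middle panel the medians of the 5 complexes lie at -0.46 to -0.39 and that of the mitochondrial genes at 0.25.

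The fall was spread over all complexes. In complex I 19 of 36 nuclear members fell, 3 of the 7 core subunits and 16 of the 29 accessory ones, and all 36 values were below 0 (median -0.39). The lowest was Ndufa7 (ENSMUSG00000041881, chromosome 17, 33961536 to 33975261), an accessory subunit, which measured 5.96 to 6.98 in WT with a median of 6.46. It was 5.38, 5.33, 5.71 and 5.69 in Dicer/Dnmt1 KO, below every WT library, a log2 fold change of -0.98 (SE 0.16, adjusted p = 5.7e-05). The core subunit Ndufv1, which binds NADH, differed by -0.05 (SE 0.13, adjusted p = 0.755) and was not called.

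In complex II, which oxidises succinate and also serves the tricarboxylic acid cycle, the 4 subunits differed. Sdha (ENSMUSG00000021577, chromosome 13, 74459702 to 74487728), the flavoprotein, measured 6.33 to 6.63 in WT and 6.53 to 6.72 in Dicer/Dnmt1 KO, a difference of 0.12 (SE 0.07, adjusted p = 0.139). Sdhb (ENSMUSG00000009863, chromosome 4, 140517118 to 140535108), the iron-sulfur subunit, measured 5.45 to 6.26 in WT. It was 5.29, 5.26, 5.38 and 5.43 in Dicer/Dnmt1 KO, below every WT library, and 5.61, 5.36, 5.12 and 5.26 in Dnmt1 KO. Its log2 fold change was -0.51 (SE 0.13) in both, with adjusted p = 0.00222 and 0.00364. The membrane anchor Sdhc (ENSMUSG00000058076, chromosome 1, 173057296 to 173080734) fell by 0.47 when Dnmt1 alone was lost (SE 0.15, adjusted p = 0.0181) and by 0.42 in the double knockout (SE 0.15, adjusted p = 0.0229), with overlapping libraries. The other anchor, Sdhd (ENSMUSG00000000171, chromosome 9, 50404443 to 50411954), measured 5.88 to 6.87 in WT and 6.44, 6.20, 6.17 and 6.12 in Dnmt1 KO. It was 5.25, 5.26, 5.59 and 5.58 in Dicer/Dnmt1 KO, below all other libraries. It fell by 0.93 (SE 0.16, adjusted p = 0.0001) against WT and by 0.81 (SE 0.19, adjusted p = 0.00272) against Dnmt1 KO.

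In complex III 5 of 8 nuclear members fell (median -0.46). The core protein Uqcrc1 differed by 0.10 (SE 0.06, adjusted p = 0.15) and had the narrowest spread of the nuclear members in WT, 6.71 ± 0.05. In complex IV 12 of 16 tested members fell (median -0.46). Cox7a2l (ENSMUSG00000024248, chromosome 17, 83901259 to 83913673), a Cox7a paralog found in supercomplexes, measured 5.59 to 6.23 in WT, 5.55, 5.37, 5.04 and 5.10 in Dnmt1 KO, and 4.89, 4.95, 4.82 and 4.68 in Dicer/Dnmt1 KO. The 3 groups did not overlap. The log2 fold changes against WT were -0.61 (SE 0.12, adjusted p = 0.00077) and -1.04 (SE 0.12, adjusted p = 1.74e-06), and 36.3% of its windows have an exact copy elsewhere. Cox7b measured 6.44 to 7.76 in WT with a median of 6.96. It was 7.02, 6.79, 6.31 and 6.44 in Dnmt1 KO, while Dicer/Dnmt1 KO had 5.89, 5.73, 6.24 and 6.18, where it fell by 1.04 (SE 0.20, adjusted p = 0.000298). All Dicer/Dnmt1 KO libraries lay below WT, while Dnmt1 KO overlapped WT.

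In complex V 11 of 15 members fell (median -0.39), among them Atp5k, whose promoter is shown above (-0.66, SE 0.21). Atp5b (ENSMUSG00000025393, chromosome 10, 127520329 to 127527447), the catalytic subunit that the study used as a reference gene in quantitative PCR, was the nuclear member with the most reads, 24180 to 49723 per library in WT. It measured 9.82 ± 0.17 in WT and 9.66 ± 0.13 in Dnmt1 KO, while Dicer/Dnmt1 KO had 9.62 ± 0.05. Its differences from WT were -0.15 (SE 0.09, adjusted p = 0.206) and -0.20 (SE 0.09, adjusted p = 0.072). Under quantile normalization the second was 0.29 and passed the threshold, so its direction depends on the scaling, with adjusted p-values of 9.16e-05 to 0.58 over the alternatives (limma).

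Libraries A and B of a number resemble each other, and averaging them before the fit left 20 nuclear subunit genes lower and 1 higher (background 18.2% and 21.6%). Without WT number 4, 42 fell and 1 rose (background 30.3% and 30.9%), with a median of -0.29, while 23 fell against WT numbers 1 and 2 only (background 26%) and 71 against WT numbers 3 and 4 only (background 33%), with medians of -0.19 and -0.65.

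Dicer/Dnmt1 KO against Dnmt1 KO, both without Dnmt1, addresses the further loss of Dicer1. Of 79 nuclear subunit genes 14 fell and none rose by limma or voom (0 rose at an unadjusted p under 0.05), against 19.4% and 16.9% of all tested genes, with a median of -0.26 and 68 of 79 values below 0. Of the 101 members 18 fell with no overlap between libraries, beside 17.8% of all tested genes. Those called lower were 2 of 36 in complex I, 1 of 4 in complex II, 3 of 8 in complex III, 2 of 16 in complex IV and 6 of 15 in complex V. The difference between complexes was not tested.

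The lowest value was that of Uqcrq (ENSMUSG00000044894, chromosome 11, 53241424 to 53244333), an accessory subunit of complex III. It measured 3.55, 3.68, 3.43 and 3.62 in Dnmt1 KO, while Dicer/Dnmt1 KO had 2.54, 2.44, 2.67 and 2.52, a log2 fold change of -1.03 (SE 0.18, adjusted p = 0.000335). In WT it ran from 2.43 to 3.59, and the lowest value, that of WT 1A, lay within the range of Dicer/Dnmt1 KO. Atp5g3 (chromosome 2, 73746504 to 73749383), the third gene of the c-ring protein, measured 6.39, 6.34, 6.24 and 6.16 in Dnmt1 KO, while Dicer/Dnmt1 KO had 5.23, 5.14, 5.73 and 5.69. It fell by 0.84 (SE 0.19, adjusted p = 0.00224). Atp5g1 fell by 0.53 (SE 0.10, adjusted p = 0.000611) and Atp5g2 differed by -0.21 (SE 0.16, adjusted p = 0.304). Copies limit the reads of both, as given above. Atp5l, of the membrane part of complex V, fell by 0.78 (SE 0.24, adjusted p = 0.0194), with 83.5% of its windows copied elsewhere.

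Averaging A and B left 1 nuclear subunit gene lower in this comparison, Uqcrq (background 4.22%). Over all alternatives the adjusted p-values (limma) of Sdhd, Atp5g3 and Atp5l reached 0.077, 0.074 and 0.16. The WT libraries enter this comparison only through the shared estimate of the spread. Without WT number 4 the count of nuclear subunit genes that fell was 29 (background 23.3%) with the same median. With WT numbers 1 and 2 only in the fit it was 35 (background 23.9%), and with WT numbers 3 and 4 only 31 (background 24%). With the number of a library as a block it was 40 (background 27.5%), and whether the numbers pair the libraries is not known. Leaving out 1 knockout library lowered the 14 to 8 without Dnmt1 KO 1A (background 14.6%) and to 9 without Dicer/Dnmt1 KO 1B (background 15.4%).

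Transcripts of these genes are short, and shorter transcripts in general were lower in Dicer/Dnmt1 KO. The longest annotated transcript had a median of 960 bases over the 79 nuclear subunit genes and 3134 bases over all tested genes. Across the 12892 tested genes, which are not independent replicates, the log2 fold change and the length had a Spearman rho of 0.14 in Dnmt1 KO against WT, 0.36 in Dicer/Dnmt1 KO against WT and 0.35 between the knockouts. In Dicer/Dnmt1 KO against WT, the 24 members under 700 bases had a median of -0.42, beside -0.53 for the 284 other genes of that length. From 700 to under 1000 bases, 19 members had a median of -0.51 and the 436 others -0.45. From 1000 to under 1500 bases 12 members had -0.51 and 1064 others -0.29, and from 1500 to under 2500 bases 13 members had -0.38 and 2772 others -0.13. The 11 members of 2500 bases or more had -0.28 and the 8257 others 0.15. In the shortest class 14 of 24 members fell, beside 61.3% of the other genes, and in the longest 5 of 11, beside 22.1%. In the 3 classes of 1000 bases or more the members' median was thus below that of the other genes, and every class but the shortest holds under 20 members. The longest annotated transcript need not be a coding one. Ndufb7 counts as 4435 bases where its longest protein-coding transcript has 623, and Atp5e as 1697 where that has 421. Such members stand in a longer class, so these medians do not show that members with long messages fell beyond the trend. The differences between members and other genes were not tested.

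**Figure D4:**
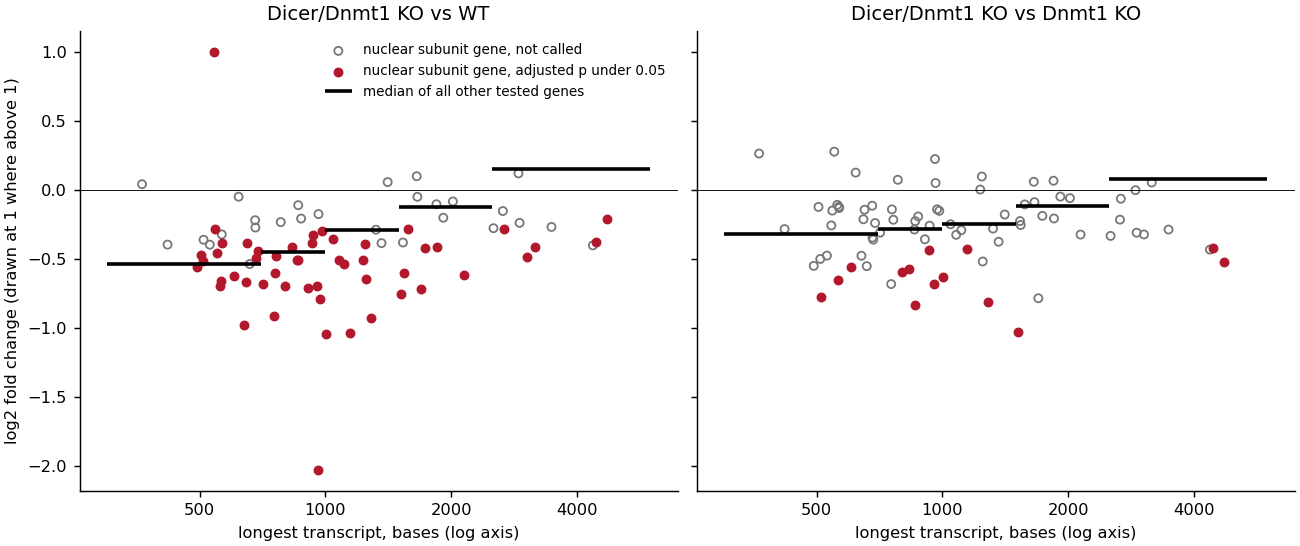
Log2 fold change of each nuclear subunit gene (y axis) against the length of its longest transcript (x axis, log scale) for 2 comparisons, with the median of all other tested genes in 5 length classes as bars and Cox7b2 drawn at 1 where above it. On the left the bars rise from -0.53 under 700 bases to 0.15 at 2500 bases or more.

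A smooth trend with the same lengths was then removed from each library. After this 25 nuclear subunit genes fell and 9 rose in Dicer/Dnmt1 KO against WT (background 31.1% and 29.2%), with a median of -0.11. Between the knockouts 9 fell and 11 rose (background 19.7% and 17.9%), with a median of -0.03. RNA quality of the samples was not given, and its part in the trend was not tested.

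The 13 mitochondrial genes are transcribed as long precursors, 12 of them from 1 strand and mt-Nd6 from the other. Their levels spanned a wide range per length, from 2120 RPM per kilobase for mt-Co1 and 2159 for mt-Co3 in WT to 43.8 for mt-Nd6 and 8.83 for mt-Nd4l. These are core subunits of complex IV at the top, the only gene of its strand, and a small subunit of complex I. The whole sequence of mt-Nd4l is copied on chromosome 1, as is that of mt-Co3. The values in Dicer/Dnmt1 KO were 2154 for mt-Co1, 1675 for mt-Co3, 49.7 for mt-Nd6 and 13.2 for mt-Nd4l.

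Against WT, 4 of the 13 rose in Dicer/Dnmt1 KO, a share close to the background of 31.9%, mt-Nd1, mt-Nd4, mt-Nd5 and mt-Cytb, and 1 fell, mt-Co3 (background 30.1%). The median log2 fold change was 0.25, and no gene separated the libraries of the groups. mt-Nd4 (ENSMUSG00000064363, mitochondrial genome, 10167 to 11544) measured 7.06 to 8.79 in WT with a median of 7.58, 7.65, 8.36, 8.58 and 8.53 in Dnmt1 KO, and 9.13, 9.27, 8.33 and 8.22 in Dicer/Dnmt1 KO. The rise over WT in the double knockout was 1.04 (SE 0.29, adjusted p = 0.00502). The highest WT value was that of WT 1A, above both Dicer/Dnmt1 KO libraries of number 2. mt-Nd5 (11742 to 13565) had a median of 7.55 and a highest value of 8.47 in WT, and measured 8.68, 8.94, 7.99 and 7.89 in Dicer/Dnmt1 KO and rose by 0.75 (SE 0.25, adjusted p = 0.0142). mt-Nd1 rose by 0.70 (SE 0.25, adjusted p = 0.0206) and mt-Cytb, cytochrome b of complex III, by 0.67 (SE 0.25, adjusted p = 0.0265).

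None of the 5 mitochondrial genes of complexes IV and V was called higher, nor were 4 of the 7 of complex I, and the difference between complexes was not tested. mt-Co1 (5328 to 6872) measured 11.10 to 12.09 in WT and 11.84, 11.92, 11.56 and 11.42 in Dicer/Dnmt1 KO, a difference of 0.04 (SE 0.16, adjusted p = 0.852). mt-Co3 (8607 to 9390) measured 10.35 to 11.13 in WT and 10.28, 10.28, 10.49 and 10.38 in Dicer/Dnmt1 KO and fell by 0.34 (SE 0.13, adjusted p = 0.034). mt-Co2, mt-Atp6 and mt-Atp8 differed by 0.25, 0.12 and 0.24 and were not called. Of these, mt-Co2, mt-Co3, mt-Atp6 and mt-Atp8 lie wholly in the copied stretch. mt-Co1 runs into it, and 30.8% of its windows have an exact nuclear copy. Of the 4 genes that rose only mt-Nd4 overlaps the copied stretch. mt-Nd2, mt-Nd3, mt-Nd4l and mt-Nd6 differed by 0.51, -0.17, 0.58 and 0.17 and were not called.

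**Figure D5:**
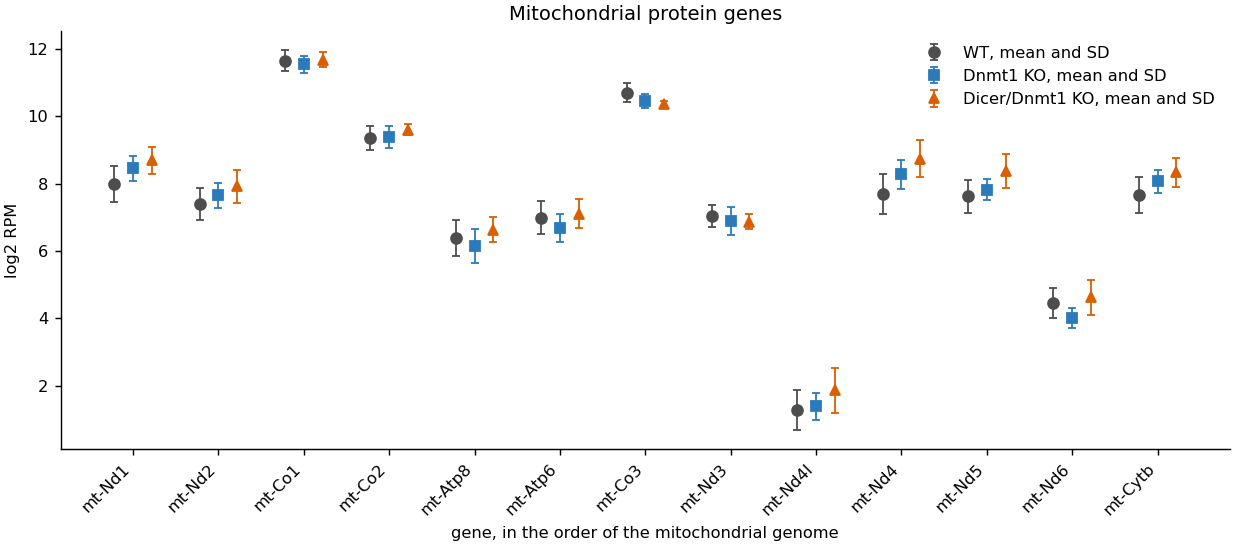
Log2 RPM (y axis) of the 13 mitochondrial protein genes in the order of the mitochondrial genome (x axis), as mean and SD over the libraries of each group. In WT the means run from 1.28 for mt-Nd4l to 11.65 for mt-Co1, and the SD bars of the groups overlap for most genes.

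Against Dnmt1 KO no mitochondrial gene of Dicer/Dnmt1 KO was called by limma or voom (1 at an unadjusted p under 0.05), with a median of 0.27 and the largest difference in mt-Nd6 (0.61, SE 0.27, adjusted p = 0.0836). In this comparison 4 rose with the number of a library as a block (background 24.4%) and 2 with WT numbers 3 and 4 only in the fit (background 20.5%). There was 1 without Dicer/Dnmt1 KO 2B (background 15.2%) and 1 with the length trend removed (background 17.9%). The calls against WT rested on the choice of libraries. With A and B averaged none of the 13 was called against WT (background 21.6% higher), and none against WT numbers 1 and 2 only (28.9%). Leaving out Dicer/Dnmt1 KO 1A or 1B left 1 that rose (28.3% and 28.1%). Against WT numbers 3 and 4 only 9 rose and 1 fell (35.8% higher), and without WT number 4 there were 2 that rose (30.9%). With the length trend removed 10 rose and none fell (background 29.2% and 31.1%), with a median of 0.86.

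Of the 9 members that encode no subunit, 8 fell and none rose in Dicer/Dnmt1 KO against WT (background of falls 30.1%), with a median of -0.45. In Dnmt1 KO 3 fell (background 17.5%), Ndufaf3, Atp5s and Atp5sl, while 4 of the 9 values were above 0 and the median was -0.08. With A and B averaged the falls were 3 (background 18.2%) in the double knockout and 1 (background 6.74%) in Dnmt1 KO. Ndufaf3 (ENSMUSG00000070283, chromosome 9, 108468197 to 108469673), an assembly factor of complex I, measured 2.65 to 3.40 in WT. It was 2.52, 2.59, 2.33 and 2.43 in Dnmt1 KO, while Dicer/Dnmt1 KO had 1.81, 2.30, 2.01 and 2.46, below every WT library. It fell by 0.59 (SE 0.14, adjusted p = 0.00212) and by 0.91 (SE 0.14, adjusted p = 2.03e-05). Atp5s, related to coupling factor B of the ATP synthase, fell by 0.47 (SE 0.16, adjusted p = 0.0229) and by 1.06 (SE 0.16, adjusted p = 1.95e-05), and Atp5sl by 0.39 (SE 0.10, adjusted p = 0.00428) and by 0.73 (SE 0.10, adjusted p = 6.99e-06). The complex I assembly factors Ndufaf1, Ndufaf2 and Ndufaf4 fell by 0.42, 0.45 and 0.41 in Dicer/Dnmt1 KO against WT, as did Sdhaf1 of complex II by 0.47 and Cox4nb, a neighbour of Cox4i1, by 0.31. Sdhaf2 differed by -0.17 (SE 0.12, adjusted p = 0.23). Against Dnmt1 KO, 6 of the 9 fell (background 19.4%), with Ndufaf4 lowest at -0.73 (SE 0.18, adjusted p = 0.00415). There were 2 falls without Dnmt1 KO 1A (14.6%), 3 without Dicer/Dnmt1 KO 1A (15.8%) and none with A and B averaged (4.22%).

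The counts of further gene lists are to be read against all tested genes, of which 31.9% rose and 30.1% fell when the double knockout was set against WT, and 23.5% and 17.5% when Dnmt1 KO was. In the former comparison 5 of 24 further assembly factors rose and 8 fell, the falls being near the background. Of 6 carriers and further subunits 3 rose and 2 fell, with Cyc1, cytochrome c1 of complex III, at 0.06 (SE 0.09, adjusted p = 0.544) and Cycs, cytochrome c, at -0.57 (SE 0.14, adjusted p = 0.0017). Of 13 tricarboxylic acid cycle genes 3 rose and 2 fell, and of 19 glycolysis genes 1 rose and 16 fell (median -0.75). In Dnmt1 KO against WT the counts were 2 and 3 of 13, and 1 and 12 of 19. All 76 mitochondrial ribosomal protein genes were tested, of which 56 fell and none rose (median -0.43), and of 76 cytosolic ribosomal protein genes 75 fell and none rose (median -0.66). In Dnmt1 KO against WT, 9 and 18 of these fell. Beside them the nuclear subunit genes, with 50 of 79, were not the group with the largest share of falls, although these lists were not tested against each other.

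Among genes that express the mitochondrial genome, 2 of 25 rose and 10 fell in Dicer/Dnmt1 KO against WT, beside 31.9% and 30.1% of all tested genes. In Dnmt1 KO against WT 8 rose and 3 fell (background 23.5% and 17.5%), and between the knockouts 1 rose and 9 fell (background 16.9% and 19.4%). Tfam, the packaging and transcription factor of mitochondrial DNA, measured 5.88 ± 0.31 in WT, 5.77 ± 0.15 in Dnmt1 KO and 4.84 to 5.15 where Dicer1 was lost too. It fell by 0.88 (SE 0.14, adjusted p = 4.29e-05) against WT and by 0.77 (SE 0.16, adjusted p = 0.00147) against Dnmt1 KO. Polrmt, the mitochondrial RNA polymerase, differed by 0.05 (SE 0.12, adjusted p = 0.747) from WT, and Lrpprc, which stabilises mitochondrial messages, by less than 0.01 (SE 0.07, adjusted p = 0.965). Of 8 tested regulators of respiratory genes 3 rose, near the background of 31.9%, and none fell in the double knockout against WT. Nrf1 and Gabpa, whose motifs are counted above, differed from WT by -0.02 (SE 0.06, adjusted p = 0.726) and -0.14 (SE 0.07, adjusted p = 0.0776). Esrra rose by 0.38 (SE 0.12, adjusted p = 0.0124), and by 0.54 with Dnmt1 alone lost (SE 0.12, adjusted p = 0.00201). The coactivator Ppargc1b rose by 1.02 (SE 0.32, adjusted p = 0.0111). Ppargc1a, its better known relative, had 0 to 3 reads in every library.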

How the data were processed

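Ribosome-depleted, stranded, paired-end libraries of total RNA were trimmed by the authors with Trim Galore 0.3.5, aligned with TopHat2 2.0.11 and quantified in SeqMonk on NCBIM37, with alignments of low mapping quality discarded. The deposited values are log2 RPM, made by the authors from reads per gene. Whole reads were recovered from them (100% of values within 0.1 read); a gene without reads is written as about 0.9 read. The strand setting of the counting is not given in the sources used here. The table holds 35 other columns of values, which were not used.

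Genes above 1 RPM in at least 4 libraries (12892) were tested with limma 3.58.1 (R 4.3.3) on log2 RPM, with a mean per group, an intensity trend and Benjamini-Hochberg adjustment over all of them. The fit was tested on simulated data. Where separate cultures are not documented, p-values measure the spread between libraries, which may be technical for A and B. Groups came from the labels. Intervals and floors cover counting error only.

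The members and lists were chosen with earlier results of these data known. Named members are the mitochondrial genes, Sdha to Sdhd, Atp5b, the members that are no subunit, those under the filter, and in each comparison up to 5 called members with the highest and 5 with the lowest change among those whose libraries do not overlap. Ndufa4, Ndufv1, Uqcrc1, Cox7a1, Atp5g1, Atp5g2 and Atp5k were chosen after their values were seen. A gene entered in error was removed from the glycolysis list after its values were seen. Named from the other lists were Cyc1, Cycs, Tfam, Polrmt, Lrpprc, Nrf1, Gabpa, Esrra, Ppargc1a and Ppargc1b.

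Alternatives were averaging A and B, WT subsets, a replicate block, median centring, quantile normalization, no filter, a pseudocount of 1 RPM, voom on recovered reads, removal of a lowess trend with transcript length (span 0.3) and each library left out. Leaving out WT number 4 was chosen after seeing the data. Transcripts were compared with the NCBIM37 genome in windows of 100 bases. Promoters and motifs came from RefSeq.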

Additional observations from a re-analysis of the deposited data

Results flagged for a closer look

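Among 40 named members, 120 groups of 4 or 8 libraries were checked for a library far from the others of its group, and 6 were found, where chance gives about 1 in 20. In WT 1A, Ndufa4l2 measured 0.065 log2 RPM (33 reads), with the nearest WT library at 0.93, and Uqcrq measured 2.43, with the nearest at 3.24. In Dnmt1 KO, Atp5s measured 2.23 in 1A, with the nearest at 1.81, and Cox4nb measured 4.91 in 1B, with the nearest at 5.31. In Dicer/Dnmt1 KO, Atp5sl measured 3.50 in 1B, with the nearest at 3.20, and Cox8b measured -3.39 in 2B, which is 3 reads, with the nearest at -5.14.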

How the results depend on the processing

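Over the 108 changes of named members and their 2916 alternative values, 2608 kept their direction and their side of the threshold, 125 lost a call, 89 gained one and 94 changed sign, of which 88 were called under neither setting. The 6 others were Atp5b under quantile normalization (0.19 in Dicer/Dnmt1 KO against Dnmt1 KO and 0.29 against WT) and, with the length trend removed, Cox6b2 (0.047), Ndufaf2 (0.0054), mt-Co3 (0.074) and mt-Nd3 (0.42) in Dicer/Dnmt1 KO against WT. The cause was not tested.

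For Dnmt1 KO against WT, 2 members rose (background 23.5%). The count became 1 with A and B averaged (11%), 21 with the replicate block (28.5%) and 15 against WT numbers 1 and 2 (25.2%). It was 7 against WT numbers 3 and 4 (28.3%), 6 without WT number 4 (24.6%) and 5 with the length trend removed (23.2%). The 14 that fell (background 17.5%) became 4 with averaging (6.74%) and 54 against WT numbers 3 and 4 (21.8%). The nuclear median was 0.090 with the block, 0.090 against WT numbers 1 and 2 and -0.37 against WT numbers 3 and 4. Numbers 3 and 4 occur in WT only, so the block takes changes against WT from numbers 1 and 2. The 2 equal medians are therefore not separate results.

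For Dicer/Dnmt1 KO against WT, 5 rose (background 31.9%). The count became 1 with averaging (21.6%), 3 with the block (31.2%), 1 against WT numbers 1 and 2 (28.9%) and 10 against WT numbers 3 and 4 (35.8%). It was 3 without WT number 4 (30.9%), 10 with quantile normalization (28.0%) and 19 with the length trend removed (29.2%). The 59 that fell (background 30.1%) became 23 with averaging (18.2%) and 39 with the block (29.5%). They were 28 against WT numbers 1 and 2 (26.0%) and 30 with the length trend removed (31.1%). The nuclear median was -0.65 against WT numbers 3 and 4 and -0.11 with the length trend removed, where the mitochondrial median was 0.86.

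For Dicer/Dnmt1 KO against Dnmt1 KO, none rose at first (background 16.9%). With the block 4 rose, all of them mitochondrial (24.4%). There were 2 with WT numbers 3 and 4 (20.5%), 1 with quantile normalization (18.0%) and 12 with the length trend removed (17.9%). The 20 that fell (background 19.4%) became 1 with averaging (4.22%) and 48 with the block (27.5%), 40 of them nuclear subunit genes. They were 42 with WT numbers 1 and 2 (23.9%), 38 with WT numbers 3 and 4 (24.0%) and 36 without WT number 4 (23.3%). With the length trend removed they were 13 (19.7%), and the nuclear median was -0.028.

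Leaving out 1 library gave, for Dnmt1 KO against WT, 2 to 5 members higher (5 without WT 1A, 4 without WT 4B) and 10 to 22 lower (22 without WT 1A), with medians of -0.22 to -0.04 (nuclear) and -0.13 to 0.13 (mitochondrial). For Dicer/Dnmt1 KO against WT it gave 2 to 7 higher (2 without Dicer/Dnmt1 KO 1A or 1B) and 45 to 73 lower, with medians of -0.48 to -0.35 and 0.17 to 0.37. Between the knockouts it gave 0 to 1 higher (1 without Dicer/Dnmt1 KO 2B) and 10 to 25 lower (10 without Dnmt1 KO 1A, 13 without Dicer/Dnmt1 KO 1A, 13 without 1B), with medians of -0.33 to -0.19 and 0.12 to 0.42. Over all tested genes the shares for Dnmt1 KO against WT were 18.9% to 24.9% higher and 12.5% to 18.8% lower. For Dicer/Dnmt1 KO against WT they were 28.1% to 33.6% and 26.8% to 31.3%, and between the knockouts 13.2% to 19.0% and 14.6% to 21.3%.

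Whether the numbers pair the libraries across groups is not known. The correlations of same-numbered deviations ran from -0.34 to 0.58. With 2 numbers in each knockout the deviations of a group mirror each other, so this check cannot decide it. The block describes a shared number only. Depth limits Cox4i2, Cox6a2, Cox8b, Cox8c and Ppargc1a, which were not tested. Exact copies most limit 7 mitochondrial genes, Atp5g2 and Atp5l, and in part mt-Co1, with 30.8% of its windows copied. Among the 65 tested nuclear subunit genes with under 10% of windows copied, 39 fell and 1 rose in Dicer/Dnmt1 KO against WT (background 30.1% and 31.9%).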
